A study of Mus musculus with 10 samples.

Results

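The genes described here encode 9 receptors that act in the retention of myeloid cells in the bone marrow, in adhesion or in release from the marrow. They include the chemokine receptor genes *Cxcr4* and *Cxcr2*, the integrin α chain genes *Itga4*, *Itgal* and *Itgam*, and the integrin β chain genes *Itgb1* and *Itgb2*. The others are the selectin ligand gene *Selplg* and the hyaluronan receptor gene *Cd44*. All of these genes were chosen by name, for their function, and are 9 of the 51717 genes to which estimated reads were summed. All 9 were among the 12381 genes with enough reads to be tested, so that no receptor dropped out on a low value. RNA-seq was performed on granulocyte-macrophage progenitors (GMPs) from the bone marrow of male mice of strain C57Bl6/N, and the comparison asks which transcripts change when cells lose MPC2, a subunit of the carrier that brings pyruvate into mitochondria. The 5 WT samples were ROSA26 CreER+/- and the 5 recent KO samples were Mpc2fl/fl; ROSA26 CreER+/-, so that both groups carried the CreER transgene, which is expressed from the ubiquitous ROSA26 locus, and both received tamoxifen chow for 2 wk until the day of sampling. In these mixed bone marrow chimeras, the sorted cells were the CD45.2+ donor cells of irradiated hosts that also held WT competitor cells. Cells were first enriched for CD27. Each WT sample came from a single animal, whereas cells of 2 animals were pooled for each recent KO sample, which thus averages over them.

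CXCR4 binds CXCL12 made by marrow stroma and keeps progenitors and immature neutrophils in the marrow, whereas CXCR2 binds chemokines that draw neutrophils out of it. Integrins work as pairs of an α and a β chain: α4 with β1 forms VLA-4, which binds VCAM-1 on stromal cells, and αL or αM with β2 forms LFA-1 or Mac-1, which bind ICAM-1 and other ligands of the endothelium. PSGL-1, the product of *Selplg*, carries the glycans that selectins recognize, and CD44 binds hyaluronan in the marrow matrix.

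The libraries held 14033776 to 19745405 estimated reads. *Mpc2* itself had 61.0 to 117 normalized CPM (estimated reads scaled to library size with TMM factors) in the WT samples and 17.1 to 43.9 in the recent KO samples, so that every library was on the side its label gives (log2 fold change −1.46, SE 0.24, edgeR quasi-likelihood test, adjusted p = 0.0156). Of 14 genes fixed as GMP markers, all 14 passed the filter on low counts, and *Mpo*, the peroxidase of primary granules, was the highest at 61000 normalized CPM in WT and 42410 in recent KO samples. The summed level of the GMP markers ranged from 90470 to 127700 normalized CPM in WT and from 53990 to 92370 in recent KO libraries. The B cell genes *Ebf1* and *Pax5* and the stromal and endothelial genes *Cxcl12*, *Cdh5* and *Sele* were at or under 3 reads in every library, but other genes of these lists were not. The B cell list summed to 67.2 to 79.5 normalized CPM in WT and 56.6 to 74.3 in recent KO libraries, most of it from *Cd79b*, and the stromal and endothelial list to 3.58 to 5.32 and 4.57 to 7.16, most of it from *Pdgfrb*. Erythroid markers summed to 126 to 209 normalized CPM in recent KO samples 3, 4 and 5 against 9.11 to 42.6 in the other 7 libraries, and macrophage markers to 44.0 to 80.1 in recent KO against 18.4 to 39.4 in WT libraries. Of the markers tested, 5 of 7 erythroid and 6 of 9 macrophage genes were past an unadjusted p under 0.05, all of them higher in recent KO samples, where 10.2% of all genes tested were past it in either direction. The macrophage genes *C1qa*, *C1qb* and *C1qc* passed the adjusted test as well (edgeR adjusted p = 0.0406, 0.0160 and 0.0383). *Adgre1* of the same list ran lower (log2 fold change −0.39, adjusted p = 0.569), and *Vcam1*, its highest gene, was at 0.18 (adjusted p = 0.862). At the unadjusted threshold, 6 of 10 neutrophil and 3 of 3 megakaryocyte and platelet genes were also higher, and 5 of 9 monocyte and 10 of 14 GMP genes lower. Neutrophil sums overlapped, at 200 to 541 normalized CPM in WT and 203 to 949 in recent KO libraries. The part that such differences in cell makeup play in the receptor values below was not tested.

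Per unit of transcript length, *Selplg* was by far the most abundant of the 9 transcripts. In TPM, which is scaled to length so that genes can be set side by side, it averaged 116 ± 12.7 (SD, n = 5) in WT samples and was 8.71-fold above the next gene. The middle of the order held *Cd44* at 13.3 ± 0.764 TPM, *Itgb1* at 12.9 ± 0.805, *Itgb2* at 8.87 ± 1.54 and *Cxcr4* at 8.07 ± 1.36. The ranges of *Cd44* and *Itgb1* overlapped, as did those of *Itgb2* and *Cxcr4*, so that these neighbors cannot be ordered. *Itgal* followed at 3.75 ± 0.717 TPM, *Itga4* at 3.00 ± 0.431, *Cxcr2* at 2.72 ± 0.513 and *Itgam*, at the end, at 1.30 ± 0.217. *Itgal* overlapped with *Itga4*, and *Itga4* with *Cxcr2*, while *Itgam* lay below *Cxcr2* in all 5 WT samples. The order among recent KO samples was nearly the same, with *Itgb1* (13.3 ± 1.53 TPM) before *Cd44* (12.7 ± 1.28) and *Cxcr4* (8.83 ± 2.12) before *Itgb2* (7.79 ± 1.34), both of them pairs whose ranges overlapped in either group.

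**Figure D1:**
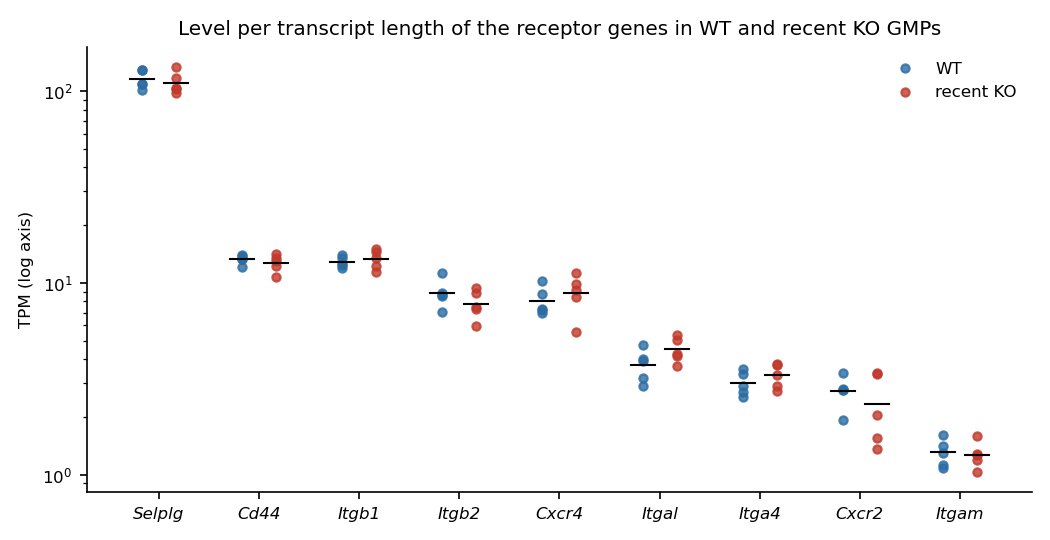
TPM on a log axis for the 9 receptor genes, ordered by their WT mean, with 1 point per sample (5 WT in blue, 5 recent KO in red) and a bar at each group mean. *Selplg* lies near 116 TPM, well above the other 8 genes, which span 13.3 to 1.30 TPM in WT, and the 2 groups overlap for every gene.

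None of the 9 receptor transcripts differed between recent KO and WT GMPs at an adjusted p under 0.05 in edgeR's quasi-likelihood test, in which 41 of 12381 genes, or 0.331%, passed. At an unadjusted p under 0.05, 3 of the 9 were past the threshold, where 10.2% of all genes tested were. *Itga4* was the 1 on the higher side, with 4.89% of all genes, and *Itgb2* and *Selplg* were the 2 on the lower side, with 5.35%. The number of receptor genes called was also 0 with DESeq2, with limma on TPM and without each sample in turn. Over all genes the count moved from 41 to 91 without recent KO sample 2, to 25 without recent KO sample 3 or 4, and to 26 without WT sample 3. For no receptor gene were the groups separate, against 2.43% of the genes tested. The median log2 fold change was −0.08 over the 9 genes and −0.002 over all genes tested. In a bulk sample, fewer cells that express a gene and less RNA per cell cannot be told apart.

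**Figure D2:**
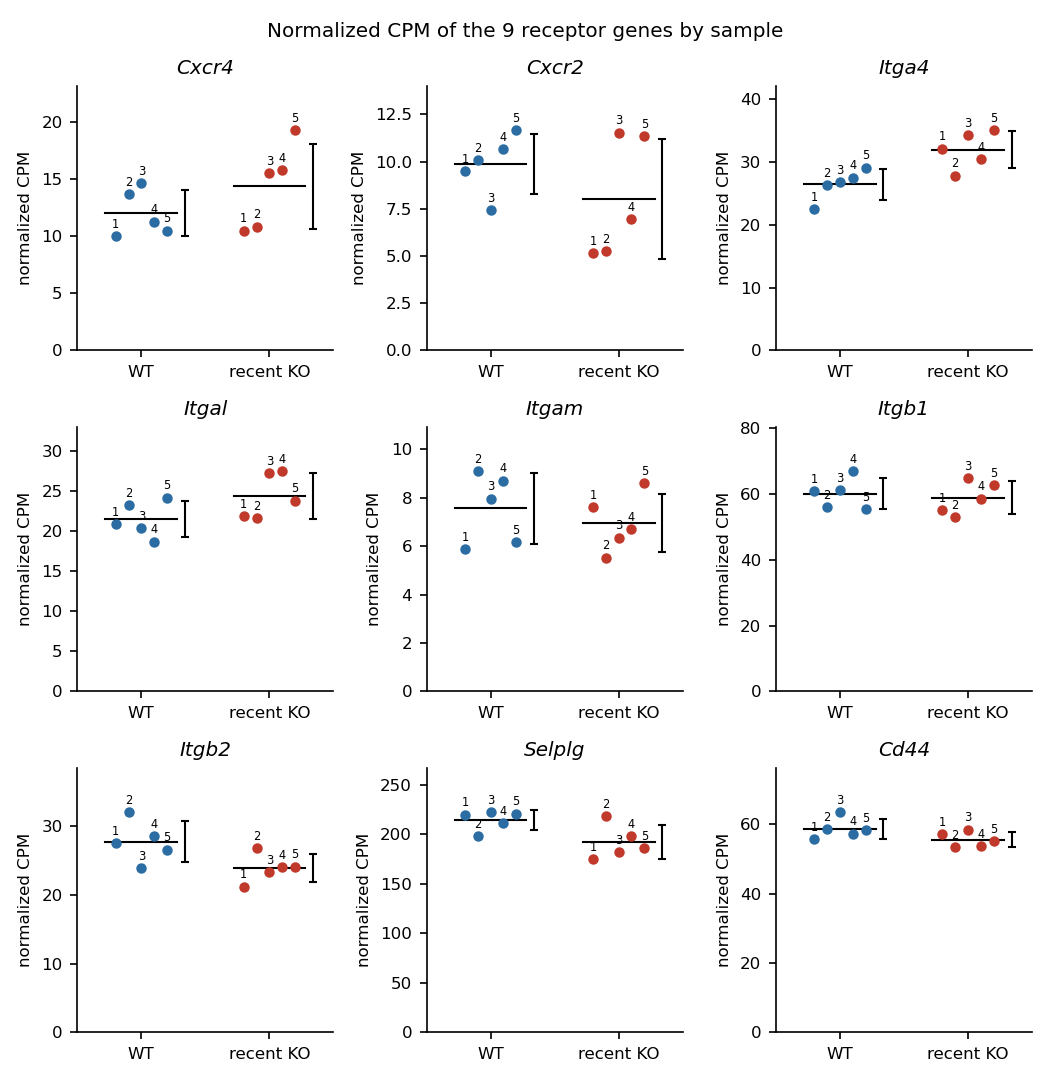
Normalized CPM of each receptor gene in the 5 WT (blue) and 5 recent KO (red) samples, each point numbered by its replicate, with a line at the group mean and a bar of ± 1 SD. The groups overlap in all 9 panels. *Itga4* shows the clearest offset, with 4 of 5 recent KO samples above the highest WT sample, and *Cxcr2* the widest spread, with recent KO samples 3 and 5 at 11.5 and 11.3.

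*Cxcr4*, the retention receptor, lies on chromosome 1 (chr1:128588199-128592293, minus strand, GRCm38). WT samples 1 to 5 had 9.99, 13.7, 14.6, 11.3 and 10.5 normalized CPM. Recent KO samples 1 to 5 had 10.5, 10.8, 15.5, 15.8 and 19.3. Recent KO samples 3, 4 and 5 lay above all WT samples, while samples 1 and 2 lay within the lower part of the WT range. The means of 12.01 ± 2.04 and 14.4 ± 3.71 (SD, n = 5 each) gave a log2 fold change of 0.27 (SE 0.17, edgeR adjusted p = 0.645), with a 95% interval of the fold from 0.933 to 1.55. It was 0.14 when recent KO sample 5 was left out. Each library had 145 to 374 reads of the gene. The 3 libraries highest in *Cxcr4* were the same 3 that were highest in erythroid markers, in stem cell markers (46.5 to 56.7 normalized CPM against at most 38.2) and in basophil and mast cell markers (342 to 362 against at most 293). They were also the 3 lowest in summed GMP markers (53990 to 75240 against at least 83710) and monocyte markers (998 to 2110 against at least 2581). On average, *Mpo* gave most of the GMP sum and *Ly6c2* most of the monocyte sum. Of the 14 GMP markers, 11 were lower in recent KO samples. The other 3, *Kit*, *Cd34* and *Cd27*, were higher, at log2 fold changes of 0.08, 0.25 and 0.22 (edgeR adjusted p of at least 0.663).

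*Cxcr4* has 2 annotated coding transcripts with different ends of exon 1. They are shown because they differ by a stretch of coding sequence near the start of the protein, and because Salmon's division of reads between them enters the length-scaled level of the gene. *Cxcr4-201* keeps 6 bases (chr1:128592189-128592194, minus strand, GRCm38), marked by capitals, that *Cxcr4-202* leaves out.
Cxcr4-201: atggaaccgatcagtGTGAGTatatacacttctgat
Cxcr4-202: atggaaccgatcagtatatacacttctgat
Both stretches begin at the start codon and cross the junction of exons 1 and 2. *Cxcr4-202* is annotated over only 902 bases against 1805, so that reads from the rest of the last exon can go to *Cxcr4-201* alone. The share of *Cxcr4* reads given to *Cxcr4-202* was 20.5, 31.8, 17.1, 20.4 and 21.3% in WT samples 1 to 5 and 6.78, 34.3, 12.6, 0 and 6.11% in recent KO samples 1 to 5. In 4 of 5 recent KO samples the share was below all WT values, and in sample 2 it was the highest of all 10. Neither the share of either transcript (edgeR's diffSpliceDGE, adjusted p = 1; exact two-sided permutation p = 0.151) nor its reads (edgeR, adjusted p = 0.834 for the long and 0.970 for the short one) passed the test. The effective length of *Cxcr4*, an average over its transcripts, was 1119 ± 67.1 bases in WT and 1309 ± 212 in recent KO samples, and with an offset for that length the log2 fold change fell to 0.06 (adjusted p = 0.950). Levels in TPM of 8.07 and 8.83 thus stood closer together than those in CPM.

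*Cxcr2*, the receptor for neutrophil-attracting chemokines (chr1:74153989-74161246, plus strand), ran in the other direction with a wider spread. WT samples had 9.50, 10.1, 7.42, 10.7 and 11.7 normalized CPM. Recent KO samples had 5.13, 5.25, 11.5, 6.94 and 11.3. Samples 1, 2 and 4 of the recent KO group lay below all WT samples, and samples 3 and 5 lay at the upper end of the WT range. The group means were 9.87 ± 1.59 and 8.04 ± 3.18, and the log2 fold change of −0.28 (SE 0.23, edgeR adjusted p = 0.750) had a 95% fold interval of 0.587 to 1.16. It was −0.16 without recent KO sample 1 or 2, −0.45 without sample 3 and −0.435 without sample 5, with no call in any of them. The biological coefficient of variation that edgeR fitted to *Cxcr2*, 0.250, was larger than that of 80.8% of the genes tested. All of its reads were given to *Cxcr2-202*, and none to *Cxcr2-201*, in every sample. Stretches of its transcripts also occur in 354 other genes at 90% identity or more over at least 100 bases, the longest of them 537 bases at 90.9% identity. Its counts may carry an uncertainty from shared reads, which was not measured.

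*Itga4*, the α chain of VLA-4, had the smallest p of the 9 genes and ranked 323rd among the 12381. WT samples 1 to 5 had 22.5, 26.3, 26.8, 27.5 and 29.1 normalized CPM. Recent KO samples 1 to 5 had 32.1, 27.8, 34.3, 30.5 and 35.1. All recent KO samples but sample 2 lay above all WT samples. The means were 26.4 ± 2.46 and 32.0 ± 2.93, with a log2 fold change of 0.28 (SE 0.09, edgeR p = 0.00686, adjusted p = 0.262) and an exact two-sided permutation p of 0.0159. The difference was smaller per length: TPM averaged 3.00 ± 0.431 in WT and 3.29 ± 0.479 in recent KO samples, and with the offset for effective transcript length the log2 fold change was 0.07 (adjusted p = 0.910). The mean effective length of *Itga4* was 6653 ± 540 bases in WT and 7776 ± 479 in recent KO samples. The full-length *Itga4-201* took 91.1 ± 3.11% of the reads of the gene in WT and 94.6 ± 1.64% in recent KO samples, and its own reads had a log2 fold change of 0.34 (edgeR, adjusted p = 0.523). *Itga4* (chr2:79255426-79333123, plus strand) overlaps *Cerkl* on the opposite strand, with 908 identical bases. The library kit does not mark the strand, so that reads of that stretch cannot be told apart between both genes. *Cerkl* had 4.73 ± 0.241 normalized CPM in WT and 4.15 ± 0.603 in recent KO samples, and the sum of both genes was 31.2 ± 2.66 and 36.1 ± 2.99 (exact two-sided permutation p = 0.0238).

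*Itgal*, the α chain of LFA-1 (chr7:127296260-127335138, plus strand), had 20.9, 23.2, 20.4, 18.7 and 24.1 normalized CPM in WT samples. The recent KO samples had 21.8, 21.6, 27.2, 27.5 and 23.8. Samples 3 and 4 of the recent KO group were above all WT samples, and the other 3 were inside the WT range. The log2 fold change was 0.18 (SE 0.10, edgeR adjusted p = 0.545), with a 95% fold interval of 0.983 to 1.31. Reads were divided between *Itgal-201* with 31 exons, at 65.1 ± 15.3% in WT and 61.5 ± 10.1% in recent KO samples, and *Itgal-203* with 21 exons. *Itgal-203* starts downstream of the start of *Itgal-201* and has none of its first 11 exons with the same ends. The share of *Itgal-203* ran from 21.4 to 58.2% among WT samples and from 24.2 to 50.3% among recent KO samples, so that the groups covered much the same span (edgeR's diffSpliceDGE, adjusted p = 1).

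*Itgam*, which encodes CD11b, the α chain of Mac-1 and a marker of mature myeloid cells, was the lowest of the 9. WT samples had 5.87, 9.10, 7.96, 8.71 and 6.17 normalized CPM. Recent KO samples had 7.59, 5.53, 6.35, 6.70 and 8.61, all but 1 inside the WT range. The means of 7.56 ± 1.47 and 6.96 ± 1.19 differed by less than their SDs (log2 fold change −0.11, SE 0.16, edgeR adjusted p = 0.870), and the 95% interval of the fold, 0.727 to 1.17, still allows a drop of the size seen for *Itgb2*. *Itgam* (chr7:128062640-128118491, plus strand) has a near copy on the same strand in the overlapping model *Gm49368*, 99.9% identical over 3454 bases, but that model had only 0.0640 ± 0.0979 normalized CPM in WT and 0.0813 ± 0.111 in recent KO samples.

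A pair of *Itgam* transcripts that differ by 3 coding bases at the start of exon 14 is shown because the reads of this gene could not be divided between them in a stable way. The capitals mark the 3 bases (chr7:128101634-128101636, plus strand, GRCm38) that only *Itgam-201* has.
Itgam-201: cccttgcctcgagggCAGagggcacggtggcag
Itgam-203: cccttgcctcgagggagggcacggtggcag
*Itgam-203* took 35.3, 51.4, 0, 100 and 100% of the *Itgam* reads in WT samples 1 to 5 and 98.0, 20.1, 86.3, 65.3 and 0% in recent KO samples 1 to 5. Both extremes occurred within the WT group and nearly so within the recent KO group. Each library had only 79 to 167 estimated reads for the whole gene, and the transcripts are of nearly the same length, 4682 and 4649 bases. The shares were therefore not read as a use of one site over the other.

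The partner chain of α4, encoded by *Itgb1* (chr8:128685654-128733200, plus strand), had 60.8, 55.9, 61.0, 66.9 and 55.3 normalized CPM in WT samples and 55.0, 52.9, 64.9, 58.5 and 62.7 in recent KO samples. The ranges nearly coincided. Means were 60.0 ± 4.71 and 58.8 ± 5.05, and the log2 fold change was −0.03 (SE 0.08, edgeR adjusted p = 0.944), a value whose sign turned under library-size scaling (0.05). The 95% interval of the fold ran from 0.875 to 1.10. *Itgb1-201* took 99.6 ± 0.875% of its reads in WT and 99.4 ± 1.24% in recent KO samples.

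*Itgb2*, which encodes the CD18 chain shared by LFA-1 and Mac-1 (chr10:77530252-77565708, plus strand), stood lower in recent KO samples. WT samples had 27.6, 32.1, 23.9, 28.5 and 26.6 normalized CPM. Recent KO samples had 21.2, 26.8, 23.3, 24.1 and 24.1. All 5 recent KO values were below the WT median of 27.6, and 2 were below all WT samples. The means of 27.7 ± 2.98 and 23.9 ± 1.99 gave a log2 fold change of −0.21 (SE 0.09, edgeR p = 0.0305, adjusted p = 0.425) and an exact two-sided permutation p of 0.0556. With an offset for transcript length it was −0.26 (adjusted p = 0.565). *Itgb2-201* took 97.4 ± 2.56% of its reads in WT and 98.1 ± 1.60% in recent KO samples, and 1 other gene, *Gm14699*, holds a stretch of 228 bases at 96.5% identity.

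*Selplg*, which encodes PSGL-1 (chr5:113818536-113832644, minus strand), was measured from 2487 to 4497 reads a sample, the most of the 9 genes. WT samples had 220.1, 199, 223, 211 and 221 normalized CPM. Recent KO samples had 175, 219, 182, 198 and 186. All recent KO samples but sample 2 lay below all WT samples. The means were 215 ± 10.1 and 192 ± 17.1, with a log2 fold change of −0.16 (SE 0.07, edgeR p = 0.0291, adjusted p = 0.423) and an exact two-sided permutation p of 0.0317. With recent KO sample 2 left out, the value was −0.21 (edgeR adjusted p = 0.122). In TPM the groups stood closer, at 116 ± 12.7 and 111 ± 14.4. *Selplg-201* took 97.2 ± 0.598% of its reads in WT and 96.4 ± 1.03% in recent KO samples. Stretches of the gene's transcripts occur in 114 other genes, the longest over 204 bases.

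*Cd44*, the hyaluronan receptor gene (chr2:102811141-102901665, minus strand), had the smallest fitted variation of the 9 genes. WT samples had 55.8, 58.6, 63.5, 57.3 and 58.4 normalized CPM, and recent KO samples had 57.2, 53.4, 58.5, 53.6 and 55.1. Of the recent KO samples, 3 were below all WT samples, and the other 2 were inside the WT range. The log2 fold change was −0.08 (SE 0.06, edgeR adjusted p = 0.720), and its 95% interval limits the fold to 0.865 to 1.04. The fitted biological coefficient of variation, 0.0836, was smaller than that of all but 5.41% of the genes tested.

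CD44 proteins differ in an extracellular stem encoded by variable exons, and the reads of *Cd44* fell mainly on 2 transcripts on either side of that choice. The junctions are shown because they are where the forms part: in both, exon 5 ends with the lower-case letters, and the capitals are the exon joined to it, the first of 5 variable exons (636 bases in all) in *Cd44-207* and the next shared exon in *Cd44-203* (chr2:102842360-102842377 and chr2:102828593-102828610, minus strand, GRCm38).
Cd44-207: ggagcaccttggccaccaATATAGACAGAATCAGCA
Cd44-203: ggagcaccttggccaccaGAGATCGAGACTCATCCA
*Cd44-207* took 48.9, 57.2, 45.7, 53.4 and 56.9% of the reads in WT samples 1 to 5 and 74.3, 55.1, 51.6, 59.4 and 53.0% in recent KO samples 1 to 5. *Cd44-203* took 49.2, 39.3, 48.4, 45.9 and 42.1% and 25.2, 43.0, 45.4, 38.6 and 45.6%. Recent KO sample 1 stood apart from the other 9 in both shares, and the rest of the recent KO samples overlapped with WT (edgeR's diffSpliceDGE, adjusted p = 1 for both). These transcripts also differ in their last exon, of 3197 bases in *Cd44-207* and 1791 in *Cd44-203*, so that the shares do not measure the variable exons alone. *Cd44-201*, with 10 variable exons, took 0.999 ± 1.69% in WT and 0.731 ± 1.01% in recent KO samples.

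**Figure D3:**
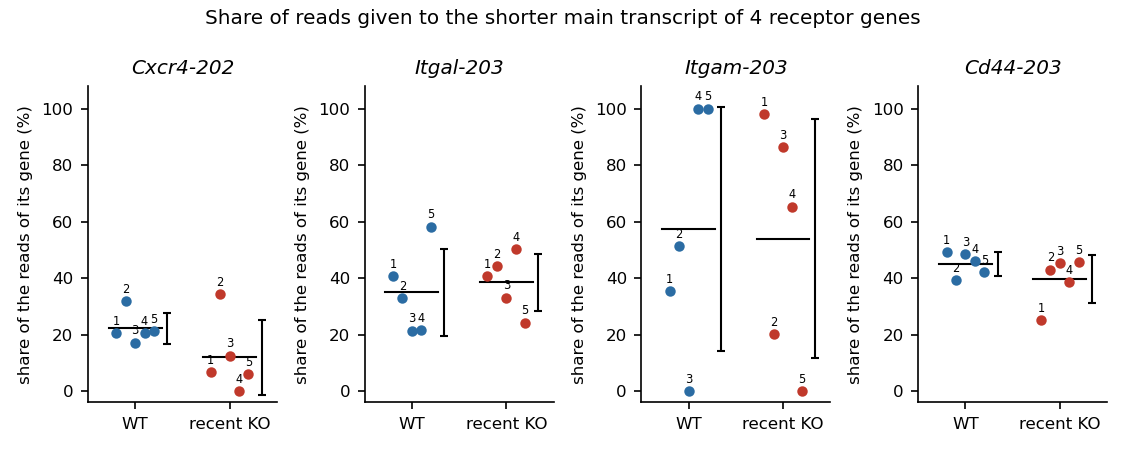
Share, in percent, of the reads of its gene that Salmon gave to *Cxcr4-202*, *Itgal-203*, *Itgam-203* and *Cd44-203* in the 5 WT (blue) and 5 recent KO (red) samples, numbered by replicate, with a line at the mean and a bar of ± 1 SD. The groups overlap in every panel, and the *Itgam-203* share runs from 0 to 100% within WT.

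Over all receptor transcripts, 16 passed the filter and none was called (smallest adjusted p = 0.523), where 0.0420% of 26185 transcripts tested were called. At an unadjusted p under 0.05, 2 of the 16 were past the threshold, where 6.15% of all transcripts tested were. Of the 13 whose share of their gene could be tested, none was called, where 0.0530% of 20752 were, and 1 had an unadjusted p under 0.05, where 1.52% of all shares tested did. That 1, named after its value was seen, was the non-coding *Itga4-203*, with 3.50 ± 1.46% of the *Itga4* reads in WT and 0.744 ± 1.09% in recent KO samples (edgeR's diffSpliceDGE, adjusted p = 1). By an exact two-sided permutation test of the share in each sample, chosen after the data were seen and not adjusted, that share had p = 0.0159 and the share of *Itga4-201*, 91.1% in WT and 94.6% in recent KO samples, p = 0.0476, and the other 11 shares had p of at least 0.151. On simulated data diffSpliceDGE found few of the shares that had been changed, and too many of its calls fell in genes that had not been, so that its adjusted p of 1 does not show that shares were alike.

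**Figure D4:**
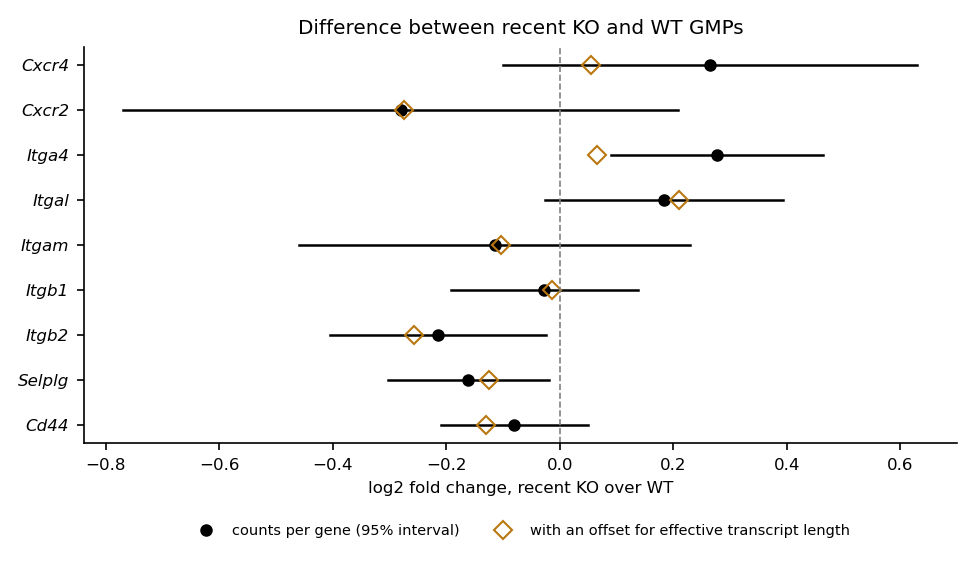
Log2 fold change for each receptor gene, with positive values where recent KO samples were higher, from counts per gene (black, with its 95% interval) and with an offset for effective transcript length (open diamonds). *Itga4* moves from 0.28 to 0.07 and *Cxcr4* from 0.27 to 0.06 with the offset, while the other 7 genes move by less.

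Integrins reach the surface as pairs, and CXCR4 and CXCR2 pull cells in opposite directions, so the ratios of 4 such pairs were compared on TPM. The ratio of *Itgal* to *Itgb2*, the chains of LFA-1, was 0.451, 0.354, 0.453, 0.329 and 0.555 in WT samples 1 to 5. In recent KO samples 1 to 5 it was 0.620, 0.446, 0.570, 0.718 and 0.585. All recent KO samples but sample 2 lay above all WT samples, with a difference of 0.46 on the log2 scale (exact two-sided permutation p = 0.0317, 0.127 after Benjamini-Hochberg adjustment over the 4 pairs). The ratio of *Cxcr4* to *Cxcr2* was 2.59, 3.68, 4.51, 2.53 and 2.16 in WT and 4.07, 5.88, 2.90, 4.12 and 3.36 in recent KO samples. These ranges overlapped, and the log2 difference of 0.39 did not pass the test (exact permutation p = 0.159, adjusted p = 0.318). The ratio of *Itga4* to *Itgb1* ran from 0.182 to 0.282 in WT and from 0.235 to 0.262 in recent KO samples (log2 difference 0.08, exact permutation p = 0.532). The ratio of *Itgam* to *Itgb2* ran from 0.124 to 0.184 and from 0.110 to 0.218 (log2 difference 0.15, exact permutation p = 0.484). On normalized CPM in place of TPM, both the *Itgal* to *Itgb2* ratio (log2 difference 0.39) and the *Itga4* to *Itgb1* ratio (0.30) had an adjusted p of 0.0476 by the exact permutation test. Neither passed after adjustment on TPM. The *Itga4* to *Itgb1* difference was smaller on TPM (0.08), so that its call rests on the scale. That of *Itgal* to *Itgb2* was not smaller on TPM (0.46). Its unadjusted p by the exact permutation test was 0.0238 on normalized CPM and 0.0317 on TPM, so that its call rests on the adjustment over the 4 pairs. In that adjustment on normalized CPM, the *Itga4* to *Itgb1* ratio had the same unadjusted p of 0.0238. On TPM, the adjusted p of the *Itgal* to *Itgb2* ratio by the same test was 0.0635 to 0.254 when each sample was left out. The *Cxcr4* to *Cxcr2* ratio differed on normalized CPM by 0.60 on the log2 scale (exact permutation p = 0.0397, adjusted p = 0.0529).

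**Figure D5:**
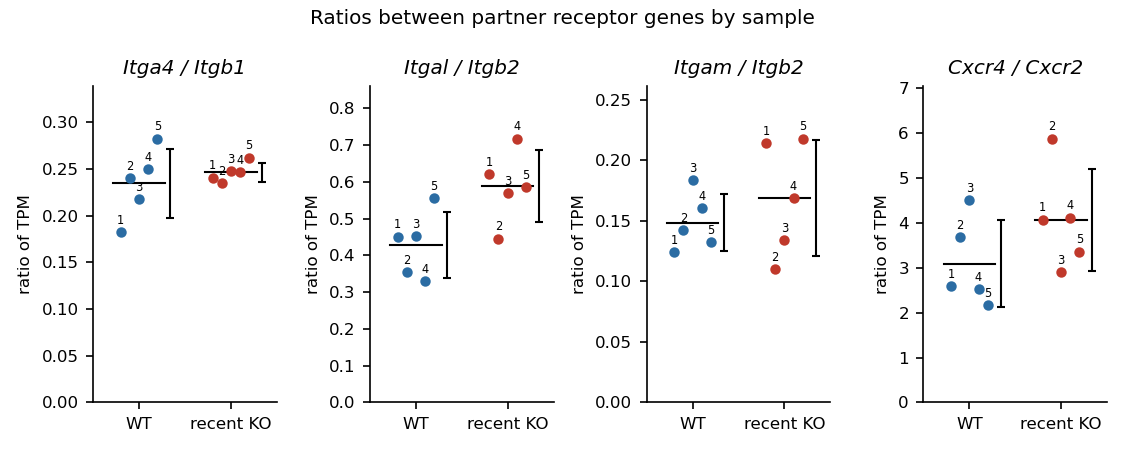
Ratio of TPM for 4 receptor pairs in the 5 WT (blue) and 5 recent KO (red) samples, numbered by replicate, with a line at the mean and a bar of ± 1 SD. The *Itgal* to *Itgb2* ratio is above the highest WT value of 0.555 in 4 of 5 recent KO samples, and the other 3 ratios overlap more widely.

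The recent KO libraries did not deviate in the same way. Samples 3 and 5 were each above their group mean for 6 of the 9 genes and highest of their group for 3, whereas sample 2 was above it for 2 and lowest of the group for 5. Sample 2 was the library nearest to WT for *Selplg*, *Itgb2*, *Itga4* and the *Itgal* to *Itgb2* ratio. It had the highest sum of neutrophil markers, 949 normalized CPM, and of macrophage markers, 80.1, and the lowest *Mpc2*, 17.1. Leaving it out changed no call among the receptors.

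Around the receptors, 9 lists of related genes, 178 genes in all and the receptors among them, were counted in the same edgeR fit. Of 126 that were tested, none passed an adjusted p under 0.05, where 0.331% of all genes tested did. At an unadjusted p under 0.05, 30 (23.8%) were past the threshold, 15 in each direction. Of all genes tested, 10.2% were past it, 4.89% higher and 5.35% lower in recent KO samples. The groups did not overlap for 1 gene that was higher and 2 that were lower in recent KO samples, where 1.11% and 1.32% of all genes tested did so. The count called was 4 without a filter on low counts (*Elane*, *Rgs1*, *Selp* and *Prtn3*) and 3 with DESeq2 (*Rgs1*, *F11r* and *Cx3cr1*). Over all genes, 206 of 27909 were called without the filter and 156 of 14360 (1.09%) with DESeq2.

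Of 26 integrin chain genes, 13 were tested, and 4 were higher and 2 lower at an unadjusted p under 0.05, the receptors *Itga4* and *Itgb2* among them. Of all genes tested, 4.89% were higher and 5.35% lower. *Itgb7*, the other partner of α4, was at 6.94 ± 1.05 normalized CPM in WT and 9.88 ± 3.24 in recent KO samples (log2 fold change 0.51, adjusted p = 0.387). *Itgb1* had the highest mean TPM of all integrin chains. Among genes that activate integrins or link them to actin, 22 of 28 were tested and 1 was past the unadjusted threshold in each direction. That was 9.09% of those tested, near the 10.2% of all genes tested. *Rap1b*, a small GTPase that switches integrins on, had 189 ± 12.6 and 209 ± 8.29 normalized CPM (log2 fold change 0.15, adjusted p = 0.415), and *Lims1*, the adaptor PINCH1, 75.5 ± 11.3 and 63.2 ± 1.75 (−0.26, adjusted p = 0.326). *Rasgrp2*, the exchange factor that loads RAP1, was the most abundant of the list in TPM, at 225 ± 19.2 and 200.1 ± 25.2 normalized CPM (−0.17, adjusted p = 0.534). In normalized CPM, which is not scaled to length, *Fermt3* stood above it, at 251 ± 13.4 and 241 ± 14.5, so that the rank of *Rasgrp2* holds for TPM only.

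Only 8 of 23 chemokine receptor genes were tested, of which 2 were past the unadjusted threshold in each direction. Of all genes tested, 10.2% were past it. *Cx3cr1*, the fractalkine receptor of monocytes, had 5.56 ± 1.24 normalized CPM in WT and 3.45 ± 0.231 in recent KO samples (log2 fold change −0.69, adjusted p = 0.155). *Ccr1* had 2.03 ± 0.225 and 3.68 ± 1.21 (0.86, adjusted p = 0.210). *Ccr2*, which lets monocytes leave the marrow, was the most abundant chemokine receptor in TPM, above *Cxcr4*, with 99.2 ± 15.3 and 84.5 ± 5.56 normalized CPM (−0.23, adjusted p = 0.429). *Cx3cr1* and *Ccr2* were also on the list of monocyte markers, whose sum was 2581 to 3948 normalized CPM in WT and 998 to 3676 in recent KO libraries.

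Downstream of these receptors, 28 of 29 signalling genes were tested, with 4 past the unadjusted threshold in each direction. That was 28.6% of those tested, where 10.2% of all genes tested were past it. *Rgs1*, a brake on G protein signalling from chemokine receptors, had 3.40 ± 0.455 normalized CPM in WT and 8.94 ± 4.68 in recent KO samples (log2 fold change 1.40, adjusted p = 0.125). Its recent KO samples ran from 3.29 to 13.9, so that the lowest lay inside the WT range of 2.94 to 4.04. Its relative *Rgs2* had 92.3 ± 13.3 and 75.2 ± 6.82 (−0.30, adjusted p = 0.272) and was the 1 gene of the list whose groups did not overlap. *Coro1a*, an actin regulator, was the most abundant of the list in TPM and near equal in both groups, with 934 ± 55.6 and 927 ± 85.6 normalized CPM (−0.01, adjusted p = 0.976).

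Among enzymes that build selectin ligands, 16 of 17 were tested. At the unadjusted threshold 2 (12.5%) were past it, both lower, a share near the 10.2% of all genes tested. *C1galt1c1*, the chaperone of the core 1 O-glycan enzyme on which PSGL-1 glycans depend, had 41.4 ± 1.32 normalized CPM in WT and 34.7 ± 5.05 in recent KO samples without overlap between the groups (log2 fold change −0.25, adjusted p = 0.373). *B4galt1*, a galactosyltransferase, had 35.8 ± 2.08 and 31.3 ± 2.77 (−0.19, adjusted p = 0.404), and *Tsta3*, which makes GDP-fucose and was the most abundant of the list in TPM, 117 ± 5.83 and 114 ± 10.04 (−0.04, adjusted p = 0.907). Of selectins and sialomucins, 9 of 13 were tested, and 2 (22.2%) were past the unadjusted threshold, 1 in each direction. Beside *Selplg*, lower at the unadjusted threshold, *Selp*, which encodes P-selectin and is best known from platelets and endothelium, had 13.6 ± 5.07 and 23.7 ± 9.66 normalized CPM (0.81, adjusted p = 0.366). Markers of megakaryocytes and platelets summed to 9.87 to 18.5 in WT and 22.9 to 31.6 in recent KO libraries. Most of that sum came from *Itga2b*, *Pf4* and *Gp9*, while *Ppbp* (means of 0.055 and 0.053) and *Vwf* (0.67 and 0.55) were not higher in recent KO samples. Whether RNA of such cells bears on *Selp* was not tested.

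Hyaluronan receptors and the linkers that tie them to actin showed no gene of 7 tested, out of 9, past the unadjusted threshold. Of all genes tested, 10.2% were past it. The linker *Msn* had 86.6 ± 1.66 and 92.0 ± 6.48 normalized CPM (log2 fold change 0.09, adjusted p = 0.666), and *Slc9a3r1*, the most abundant in TPM, 70.1 ± 4.58 and 72.3 ± 3.50 (0.04, adjusted p = 0.875). Other adhesion receptors had 13 of 21 tested and 1 (7.69%) past the threshold. That was *F11r*, encoding the junctional protein JAM-A, at 0.619 ± 0.0945 normalized CPM in WT and 1.66 ± 0.559 in recent KO samples without overlap (1.41, adjusted p = 0.0770). The tetraspanin *Cd9* had 80.9 ± 8.36 and 90.9 ± 9.36 (0.17, adjusted p = 0.540), and *Cd47*, the signal that protects cells from phagocytosis and the most abundant of the list in TPM, 806 ± 20.4 and 846 ± 27.9 (0.07, adjusted p = 0.739).

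Proteases and release enzymes that can cut retention molecules were listed together with *Timp1* and *Timp2*, which encode inhibitors of metalloproteinases. Of these 12 genes, 10 were tested, with 2 higher and 3 lower at the unadjusted threshold. The 2 higher were the protease gene *Mmp9* (log2 fold change 1.40, adjusted p = 0.462) and the inhibitor gene *Timp2* (0.29, adjusted p = 0.463). *Mmp9* was near the floor, at 0.474 ± 0.379 normalized CPM in WT and 1.27 ± 0.713 in recent KO samples, and is also on the neutrophil marker list. *Elane*, neutrophil elastase, had 24650 ± 4954 normalized CPM in WT and 15880 ± 5342 in recent KO samples (log2 fold change −0.63, adjusted p = 0.360), and *Prtn3*, proteinase 3, 7331 ± 1894 and 5291 ± 986 (−0.47, adjusted p = 0.354). Both are also on the GMP marker list, of which 10 of 14 genes were lower and none higher at the unadjusted threshold. Of all genes tested, 5.35% were lower and 4.89% higher.

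The tested genes whose profile over the 10 samples came nearest to that of *Cxcr4* were *Gna15*, *Zfp984* and *Vezf1*, with root mean square distances of 0.15, 0.16 and 0.16 between log2 profiles centered on their means, where the median over 6976 genes was 0.34. Nearest to *Itgam* were *Lztr1*, *Rp2* and *Ppwd1* at 0.09, 0.12 and 0.12, where the median over 6977 genes was 0.28. With 10 samples and this many genes compared, such distances describe these libraries alone.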

How the data were processed

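The authors sorted CD45.2+ GMPs, made SMARTseq V4 libraries, and quantified paired-end reads on Gencode's M27 transcripts with Salmon 1.5.1 (version per the submitters' processing notes). They deposited estimated counts and TPM per transcript, and a DESeq2 table of their own fold changes and p-values per gene, which was not used.

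Transcripts were matched by Ensembl identifier to GENCODE M21, which is on GRCm38 where M27 is on GRCm39. Of 140789 transcripts, 137161 (97.4%) matched, and the others held 0.348% to 0.390% of reads and were left out. All 45 receptor transcripts had the same length in both sources. Positions are GRCm38 and sequences are those of M21 transcripts. Estimated counts were summed per gene and rounded. Genes kept by filterByExpr (minimum count 10) were tested with edgeR 4.0.16 (quasi-likelihood, TMM, Benjamini-Hochberg over all genes). Effective lengths were averaged over transcripts. Transcript shares were tested with diffSpliceDGE, and ratios of TPM + 0.1 by exact permutation tests, for which 5 against 5 samples allow no p below 0.00794. Profiles were compared over tested protein-coding genes with at least 10 normalized CPM. Copies (90% identity over 100 bases) were searched with BLAST 2.17.0. The gene, transcript and share tests were checked on simulated data. The share test recovered few changed shares there, so shares were also compared by exact permutation tests, added after the data were seen.

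No samples held identical values. Floors of 3 reads cover counting error only, since amplified cDNA carries no molecular identifiers. The receptors and lists were chosen with earlier results of these data known. From each list the 2 genes with the smallest p and the gene with the highest mean TPM are named, and transcripts from a mean share of 5%. Others are named where a short count or a comparison of levels called for it, after their values were seen. *Cd99* found no match. Some single genes of the lists are not reported here. As alternatives, scaling by RLE, by upper quartile or by library size alone, other filters, a length offset, robust dispersions, a replicate block, DESeq2 1.42.0, limma 3.58.1 on log2(TPM + 1) or log2(TPM + 0.1), and leaving out each sample were run.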

Additional observations from a re-analysis of the deposited data

How the results depend on the processing

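No receptor gene was called under any of the 21 alternatives to the gene test, and all receptors but *Itgb1* kept the direction of their log2 fold change. That of *Itgb1* turned from −0.03 to 0.048 with library size only, to 0.043 and 0.046 by limma on TPM with pseudocounts of 1 and 0.1, and ran from −0.065 to 0.013 when each sample was left out. The count of all genes called was 41, against 206 without a filter on low counts, 156 with DESeq2, and 25 and 24 on TPM by limma with the larger and the smaller pseudocount, and ran from 25 (without recent KO sample 3 or 4) to 91 (without recent KO sample 2) when each sample was left out. Among the 126 genes of the lists, 4 were called without the filter, 3 with DESeq2, and 0 to 1 when each sample was left out: *Cx3cr1* without WT sample 4 and *Rgs1* without recent KO sample 2. On normalized CPM, the log2 difference was 0.303 for the *Itga4* to *Itgb1* ratio and 0.392 for the *Itgal* to *Itgb2* ratio, both past the threshold. On TPM, the former was 0.08 and ran from −0.003 (without WT sample 1) to 0.15 when each sample was left out. The offset for effective length divides out a length that was 0.22 longer on the log2 scale in recent KO samples for *Itga4* and 0.23 for *Cxcr4*. Of the 13 shares, 1 was past an unadjusted p of 0.05 by diffSpliceDGE and 2 by the exact permutation test added later. The causes of the other shifts were not tested.

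Samples of both groups share replicate numbers, but samples with the same number did not deviate together (correlations from −0.177 to 0.048, with no sample nearest to its own number). The numbers were thus not treated as pairs, though a weaker link, masked by other differences between libraries, could be missed in this way. With the replicate block, 20 genes were called, and no receptor. Depth limited *Cxcr2* and *Itgam* most, with as few as 73 and 79 reads in a sample.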
